A study of Homo sapiens with 12 samples.

Results

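The 39 genes described here code for proteins that repair DNA or signal its damage, and they were chosen by name in 5 groups. There were 19 genes of homologous recombination, 10 of the Fanconi anemia pathway, 4 checkpoint kinases, 2 genes of mismatch repair and 4 of base excision repair. All 39 were found among the 36601 genes of the table, and all 39 had a mean of at least 10 normalized counts over the 12 libraries, the filter that 15376 genes passed. The libraries came from KP4, a human pancreatic ductal carcinoma cell line labelled WT, and 3 libraries were made per treatment. The cells received for 24 h DMSO (the vehicle), 10 mM metformin (Met), a biguanide that inhibits complex I of the respiratory chain, 5 nM FK866 (FK), an inhibitor of the NAD-producing enzyme NAMPT, or metformin and FK866 at these doses (Met+FK). FK866 was dissolved in DMSO and metformin in culture medium. All groups are 1 cell line, and no label says whether replicates were separate cultures, so the p-values measure only the spread between these libraries.

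Homologous recombination repairs a broken chromosome from its sister copy. The broken ends are cut back to single strands, which a protein filament, loaded by BRCA2, pairs with the intact copy. The Fanconi anemia pathway marks a pair of proteins, FANCD2 and FANCI, with ubiquitin where crosslinks stall a replication fork, and the kinases ATM and ATR pass the alarm to CHEK2 and CHEK1, which hold the cell cycle. Many genes of these pathways are transcribed most as cells enter S phase, when E2F transcription factors are active.

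Each library held between 30667735 and 41052203 read pairs counted on genes (median 34767231). Among the members, RAD54B was the most thinly covered, with 42 to 171 read pairs per library, and MSH6 the most deeply, with 3560 to 9029. As to the labelled cell type, 7 of 9 duct markers had a mean of at least 10 normalized counts, led by the keratin KRT18. The lowest mean among these 7 was 33.7, and that of the cadherin CDH1 was 47.4. EPCAM had a mean of 8.93, and 1 duct marker was at 0 in every library. No acinar marker (0 of 5) and no endocrine marker (0 of 4) reached a mean of 10, whereas 2 of 5 fibroblast markers (COL1A1 and PDGFRB) and 2 of 4 immune markers (CD68 and PTPRC) did. The summed level of the duct markers was 25327 to 26266 normalized counts in DMSO, 19378 to 22878 in FK, 16512 to 19694 in Met and 16238 to 19672 in Met+FK. Most of it was KRT18, with a mean of 18307 in DMSO and 10421 in Met, whereas the means of SOX9 (3781 and 4444) and the cadherin CDH1 (28.5 and 61.4) were higher in Met. The fibroblast markers summed to 140 to 203 in DMSO, 239.7 to 316 in FK, 80.3 to 112 in Met and 90.9 to 115 in Met+FK, mostly COL1A1, with DCN at 0. The immune markers summed to 1101 to 1243 in DMSO, 950.5 to 1034 in FK, 917 to 977 in Met and 958 to 1003 in Met+FK, and PTPRC within them had means of 244, 244, 161 and 134. The part of these markers in the results below was not tested. FK replicate 2 stood apart from the other libraries in its dependence on GC content, with a slope of −0.245 log2 units per 10 points of GC, against −0.139 to 0.196 in the other 11. Of the 39 members, 31 had a GC content below 48.5%, the median of the genes tested, and the members' median deviation from their own means was highest in this library, at 0.52 on the log2 scale.

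Promoter sequence was available from RefSeq (GRCh38.p14) for 35 of the members, as windows from 250 bases before to 50 bases after the transcription start, and 13 of these had more than 1 window. No window was given for FANCI, NBN, RAD54B and POLB. The windows were searched on both strands for the 4 spellings TTTCGCGC, TTTGGCGC, TTTCCCGC and TTTGCCGC of the letters that E2F proteins are known to bind. At least 1 spelling was present in 8 of 35 members (22.9%), against 707 of 10829 tested genes with a window (6.53%) and 1090 of all 27305 genes with a window (3.99%). Among members that fell in Met+FK against FK it was 7 of 24 (29.2%), and among the other members 1 of 11 (9.09%). These are matches of letters and were not tested as binding sites. The windows of XRCC3, RAD54L and BRIP1, members with large falls below, held no match. The split by falls uses the same calls that are described below. The 9 matches are shown because the members below fall into those that were lower and those that were not lower with metformin, and PMS2 is the 1 gene here from the second kind. Each line runs 5′ to 3′ on the strand of the gene, with the match in capitals and 11 bases on each side. The matches lie between 172 bases before and 29 bases after the start.
EXO1 (chr1:241848197-241848226, plus strand): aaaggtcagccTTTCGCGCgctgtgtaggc
FANCA (chr16:89816801-89816830, minus strand): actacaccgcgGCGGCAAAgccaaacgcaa
FANCC (chr9:95317737-95317766, minus strand): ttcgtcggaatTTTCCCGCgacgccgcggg
FANCC (chr9:95317863-95317892, minus strand): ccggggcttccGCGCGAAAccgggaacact
FANCD2 (chr3:10026424-10026453, plus strand): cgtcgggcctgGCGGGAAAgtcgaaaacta
MSH6 (chr2:47783137-47783166, plus strand): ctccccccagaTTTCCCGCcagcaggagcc
PMS2 (chr7:6009131-6009160, minus strand): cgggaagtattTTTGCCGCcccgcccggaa
UNG (chr12:109098098-109098127, plus strand): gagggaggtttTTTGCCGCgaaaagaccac
XRCC2 (chr7:152676102-152676131, minus strand): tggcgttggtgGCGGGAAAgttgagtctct

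Per kilobase of transcript, the 3 most abundant members in DMSO were UNG at 3157 ± 219 normalized counts per kilobase (mean ± SD, n = 3), MSH6 at 1509.9 ± 123 and XRCC1 at 902 ± 15.9. The 3 least abundant were RAD54B at 26.7 ± 9.32, BRCA2 at 49.9 ± 19.6 and FANCM at 59.6 ± 19.3. The ranges of mean ± SD overlapped between BRCA2 and FANCM, between RAD54B and BRCA2, and between XRCC1 and FANCG, the next member in the order. UNG, the glycosylase that cuts uracil out of DNA, was thus measured well above the recombination mediator BRCA2 in untreated cells. All levels given from here on are normalized counts per gene, which are not divided by length and are compared within a gene only.

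The comparison of Met with DMSO asks what metformin alone did. A member is said to have risen or fallen at a limma-trend adjusted p under 0.05 over all genes tested, and to be a differentially expressed gene (DEG) if its fold change also passed 1.5. Of the 39 members, 18 fell (46.2%) and 5 rose (12.8%), where 25.9% of all genes tested fell and 24.9% rose. The 10 members that were DEGs by falling were XRCC3, RAD54L, UNG, EXO1, FANCA, FANCE, CHEK2, FANCG, RAD51AP1 and BRIP1, where 10.2% of all genes were such DEGs, and the 2 that were DEGs by rising were RAD50 and ATM (12.8% of all genes). The median log2 fold change was −0.28 over the members and 0.012 over all genes. In 19 members every Met library lay below every DMSO library and in 5 above, where 29.4% and 27.5% of all genes did so. With libraries scaled to the same total, the median of all genes moved to 0.13, 16 members fell and 7 rose (19% and 34.1% of all genes). BLM and BARD1 were then no longer called, and PMS2 and RBBP8 were called as higher. In bulk RNA, fewer cells of a kind, such as fewer cells in S phase, cannot be told apart from less of the RNA per cell.

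**Figure D1:**
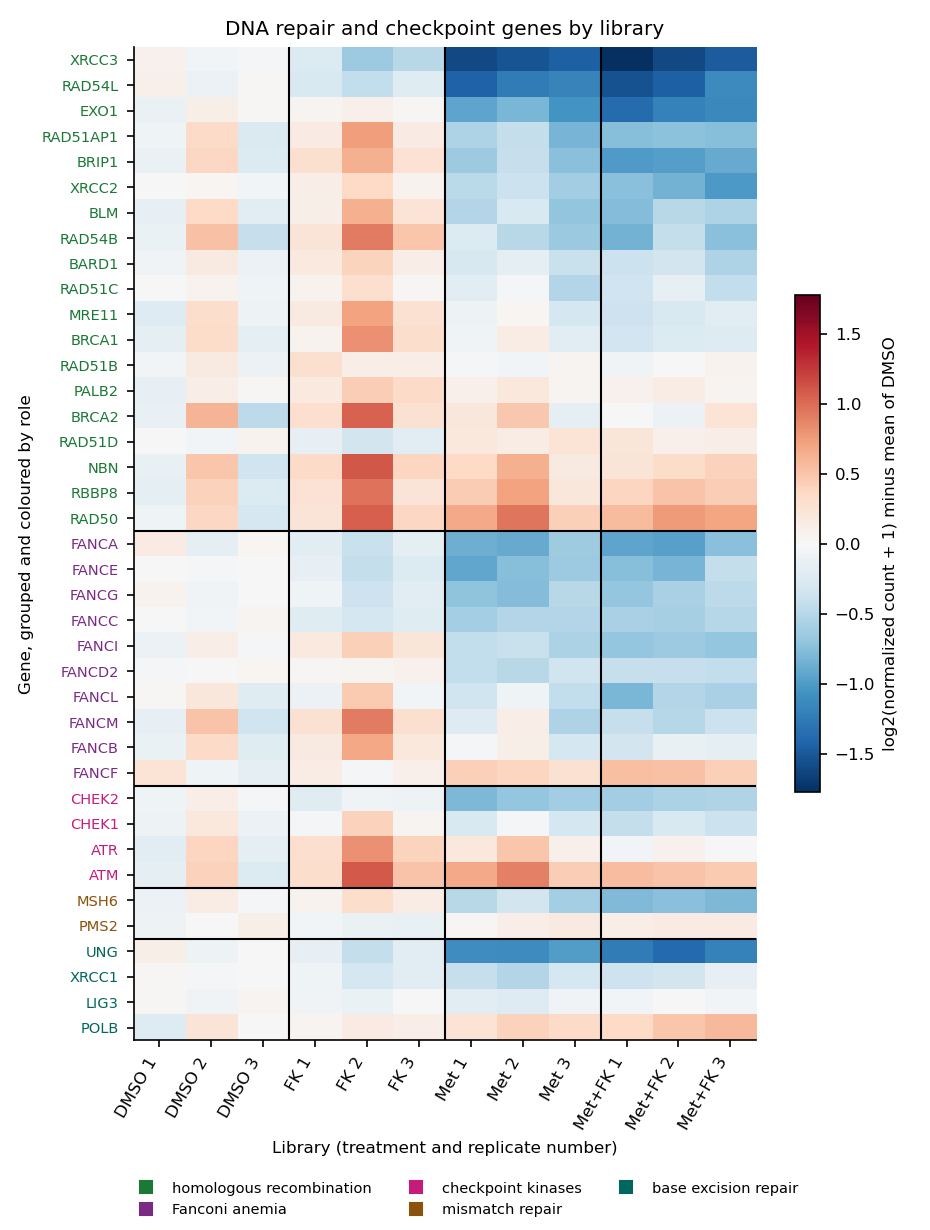
Heat map of the 39 members (rows, grouped by role) in the 12 libraries (columns, grouped by treatment), coloured by log2(normalized count + 1) minus the mean of the DMSO libraries. XRCC3, RAD54L, UNG and EXO1 are low in all Met and Met+FK libraries, and FK replicate 2 is high for many members, among them ATM, ATR and NBN.

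XRCC2, XRCC3, RAD51B, RAD51C and RAD51D, which are related in sequence, and the RAD54 proteins help with strand exchange, and here lay the members that changed most in Met against DMSO. XRCC3 had normalized counts in replicates 1 to 3 of 1962, 1798 and 1841 in DMSO, 1577, 1189 and 1329 in FK, 611, 644 and 685 in Met and 545, 614 and 669 in Met+FK. Every library with metformin lay below every library without it, and the DMSO and FK libraries did not overlap either. XRCC3 was 2.88-fold lower in Met than in DMSO (log2 fold change −1.53 ± 0.11 (SE), adjusted p = 7.45e-08) and 2.23-fold lower in Met+FK than in FK (log2 fold change −1.16 ± 0.11 (SE), adjusted p = 9.08e-07). Of its exon bases, 76.7% overlap KLC1 on the opposite strand. The strand setting of the counting was not given in the sources used here, so how this overlap affects the count of XRCC3 is not known. RAD54L, the motor protein that helps the broken strand invade the intact copy, had 2015, 1773 and 1922 in DMSO, 1569.6, 1399 and 1635 in FK, 703, 806 and 832 in Met and 649, 695 and 869 in Met+FK. Again no library with metformin reached the lowest library without it. RAD54L fell 2.44-fold in Met (log2 fold change −1.29 ± 0.11 (SE), adjusted p = 4.37e-07), and 2.09-fold between FK and Met+FK (log2 fold change −1.06 ± 0.11 (SE), adjusted p = 2.82e-06), with 19.9% of its exon bases overlapped by LRRC41 on the other strand.

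RAD51AP1, which stimulates strand invasion, had 1489, 1995 and 1316 in DMSO, 1739.5, 2627 and 1746 in FK, 1079, 1176 and 889.8 in Met and 932, 953 and 934 in Met+FK. Replicate 2 was the highest library in every treatment, and the Met libraries still lay below all DMSO libraries. It fell in Met (log2 fold change −0.60 ± 0.16 (SE), adjusted p = 0.00724) and further from FK to Met+FK (log2 fold change −1.09 ± 0.16 (SE), adjusted p = 9.67e-05). XRCC2, which forms a complex with RAD51D, had 1355, 1384 and 1310.5 in DMSO, 1459, 1728 and 1413 in FK, 973, 1032 and 878 in Met and 804, 753 and 666 in Met+FK, so that the 4 treatments did not overlap and were ordered FK, DMSO, Met, Met+FK from high to low. It fell in Met by less than 1.5-fold (log2 fold change −0.49 ± 0.099 (SE), adjusted p = 0.000815) and by 2.07-fold from FK to Met+FK (log2 fold change −1.05 ± 0.099 (SE), adjusted p = 1.15e-06). The other 3 genes related to XRCC2 and XRCC3 were not called as lower in Met. RAD51B had log2 fold changes of −0.01 in Met (adjusted p = 0.949) and −0.18 from FK to Met+FK (adjusted p = 0.169), while RAD51C had −0.25 (adjusted p = 0.0985) and −0.44 (adjusted p = 0.00922), the latter a fall.

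RAD51D, the last of the 5 related genes, had 1685, 1643 and 1777 in DMSO, 1535, 1351 and 1479.6 in FK, 1941, 1866 and 2019 in Met and 1983, 1806 and 1846 in Met+FK, and both groups with metformin lay above FK without overlap. It rose from FK to Met+FK (log2 fold change 0.37 ± 0.077 (SE), adjusted p = 0.00131). Its rise in Met against DMSO was at the threshold (log2 fold change 0.19 ± 0.077 (SE), adjusted p = 0.0498), was lost when any of the 6 libraries was left out (adjusted p = 0.0560 to 0.129) and came to −0.01 after the trend of each library on GC content and transcript length had been taken out. RAD54B, the relative of RAD54L, was thinly covered and its DMSO libraries spread from 59.3 to 114. It had a log2 fold change of −0.46 in Met (adjusted p = 0.114) and fell from FK to Met+FK (log2 fold change −1.22 ± 0.24 (SE), adjusted p = 0.000803), and 66.0% of its exon bases are shared with FSBP on the same strand.

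The proteins that process the ends were called in both directions. EXO1, the exonuclease of long-range resection, had 1565, 1827 and 1725 in DMSO, 1757, 1815 and 1725 in FK, 887, 973 and 818 in Met and 659, 740.5 and 767 in Met+FK. All Met and Met+FK libraries lay below all others, while DMSO and FK overlapped. It fell 1.91-fold in Met (log2 fold change −0.93 ± 0.091 (SE), adjusted p = 1.42e-06) and 2.45-fold from FK to Met+FK (log2 fold change −1.29 ± 0.091 (SE), adjusted p = 6.43e-08). BLM, the helicase that works with it, fell in Met (log2 fold change −0.49 ± 0.16 (SE), adjusted p = 0.0209) and from FK to Met+FK (log2 fold change −0.93 ± 0.16 (SE), adjusted p = 0.00034). The first of these calls was lost without DMSO replicate 2 (adjusted p = 0.106), Met replicate 1 (0.0570) or Met replicate 3 (0.0795).

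MRE11, RAD50 and NBN form the complex that first grips a broken end. RAD50, its coiled-coil subunit, had 2610.5, 3559.8 and 2230.2 in DMSO, 3214, 5707 and 3558 in FK, 4364, 5289 and 3674 in Met and 4057, 4639 and 4443 in Met+FK. The Met libraries lay above the DMSO libraries, with a narrow gap between Met replicate 3 and DMSO replicate 2, and the FK libraries overlapped both. RAD50 rose 1.60-fold in Met (log2 fold change 0.68 ± 0.20 (SE), adjusted p = 0.00967), and the call was lost without DMSO replicate 3 (adjusted p = 0.0544) or Met replicate 2 (0.0511). Its log2 fold change was 0.40 with the GC trend removed. NBN had 1295, 2000.1 and 1117 in DMSO, 1801, 3057 and 1859.6 in FK, 1815, 2218 and 1595 in Met and 1678, 1780.0 and 1888 in Met+FK, with replicate 2 far above the others in DMSO and FK. Its value in Met was not called (log2 fold change 0.38 ± 0.21 (SE), adjusted p = 0.136). MRE11, the nuclease subunit, did not differ detectably in Met (log2 fold change −0.12 ± 0.15 (SE), adjusted p = 0.515) and fell from FK to Met+FK (log2 fold change −0.67 ± 0.15 (SE), adjusted p = 0.00234).

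RBBP8 (CtIP), which starts resection together with that complex, had 1548, 2313 and 1463 in DMSO, 2084, 3389 and 2033 in FK, 2381, 2859 and 2002 in Met and 2269, 2462 and 2341 in Met+FK. DMSO replicate 2 lay within the Met libraries, and the value in Met was not called (log2 fold change 0.46 ± 0.19 (SE), adjusted p = 0.0585). BRCA1 and BARD1 form a ubiquitin ligase, which PALB2 links to BRCA2. BRCA1 had 2010.3, 2819.8 and 1986 in DMSO, 2330.4, 3941 and 2787 in FK, 2136, 2446 and 1975 in Met and 1764, 1889 and 1903 in Met+FK, and the Met and DMSO libraries overlapped (log2 fold change −0.04 ± 0.16 (SE), adjusted p = 0.849). It fell from FK to Met+FK, where no libraries overlapped (log2 fold change −0.67 ± 0.16 (SE), adjusted p = 0.0042). BARD1 fell in both, slightly in Met (log2 fold change −0.28 ± 0.10 (SE), adjusted p = 0.0359) and by 1.57-fold from FK to Met+FK (log2 fold change −0.65 ± 0.10 (SE), adjusted p = 0.000149). The first call was lost without DMSO replicate 1 (adjusted p = 0.0506), DMSO replicate 2 (0.148), Met replicate 1 (0.0853) or Met replicate 3 (0.114).

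BRCA2 and PALB2 were called in neither comparison. In Met their log2 fold changes were 0.17 (adjusted p = 0.596) and 0.11 (adjusted p = 0.341), and from FK to Met+FK they were −0.49 (adjusted p = 0.131) and −0.23 (adjusted p = 0.0613). BRIP1, the helicase that binds BRCA1, had 836, 1164 and 762 in DMSO, 1105, 1408 and 1082 in FK, 578, 684 and 542 in Met and 451, 458 and 487 in Met+FK. Its Met+FK libraries lay below its Met libraries, and these below all libraries without metformin. BRIP1 fell 1.51-fold in Met (log2 fold change −0.60 ± 0.15 (SE), adjusted p = 0.00338) and 2.56-fold from FK to Met+FK (log2 fold change −1.35 ± 0.15 (SE), adjusted p = 3.84e-06), the strongest fall among the members in the latter comparison. Without FK replicate 2 EXO1 fell most there (−1.27), and BRIP1 had −1.23.

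**Figure D2:**
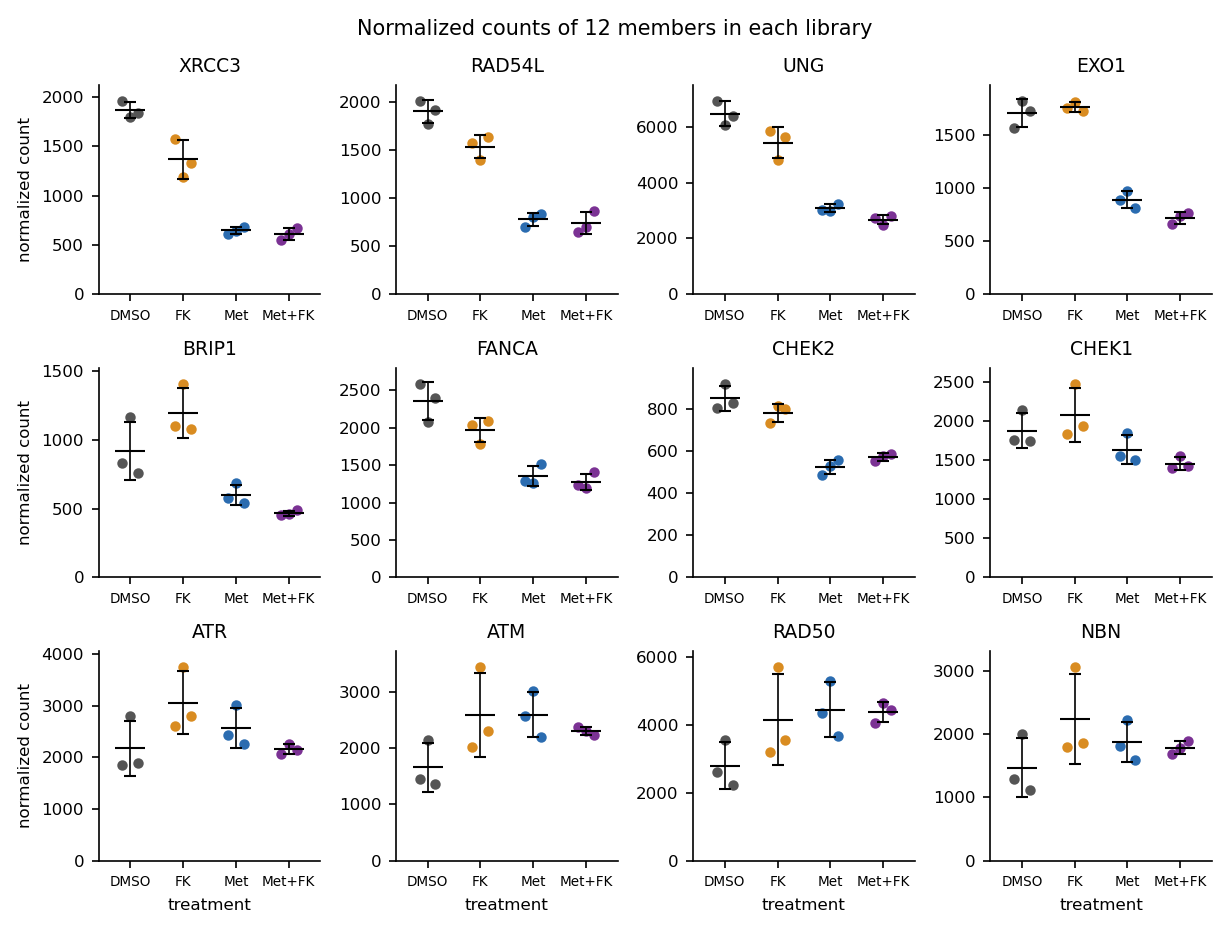
Normalized counts of 12 members in each library (points, replicates 1 to 3) by treatment, with bars for the mean ± SD, n = 3, on linear axes that start at 0. XRCC3, RAD54L, UNG and EXO1 separate the libraries with and without metformin, whereas ATR, ATM, RAD50 and NBN spread widely within FK, with replicate 2 on top.

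In the Fanconi anemia pathway, 6 of 10 members fell in Met and 1 rose (25.9% and 24.9% of all genes), and 9 fell and 1 rose from FK to Met+FK (21.7% and 20.5% of all genes). FANCA, a large subunit of the core ubiquitin ligase complex, had 2589, 2082 and 2399 in DMSO, 2039.7, 1783 and 2089 in FK, 1289, 1267 and 1516 in Met and 1230.3, 1198 and 1404 in Met+FK. The libraries with metformin were all below those without it. FANCA fell 1.73-fold in Met (log2 fold change −0.79 ± 0.10 (SE), adjusted p = 2.33e-05) and 1.54-fold from FK to Met+FK (log2 fold change −0.62 ± 0.10 (SE), adjusted p = 0.000226), with 19.6% of its exon bases overlapped by ZNF276. FANCE, which links the core complex to FANCD2, had 812, 796 and 813 in DMSO, 729, 601 and 684 in FK, 424, 478 and 518 in Met and 478, 457 and 601 in Met+FK. In Met it fell 1.71-fold (log2 fold change −0.77 ± 0.11 (SE), adjusted p = 7.04e-05). Met+FK replicate 3 reached the lowest FK library, and the call of Met+FK against FK (log2 fold change −0.40 ± 0.11 (SE), adjusted p = 0.012) was lost without FK replicate 1 (adjusted p = 0.0511), Met+FK replicate 1 (0.0520) or Met+FK replicate 2 (0.0653).

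FANCG, a further subunit of the core complex, had 2294, 2114 and 2202 in DMSO, 2096, 1705 and 1935 in FK, 1339, 1293 and 1559 in Met and 1367, 1474 and 1590.2 in Met+FK, with the DMSO libraries above FK and both above every library with metformin. It fell 1.58-fold in Met (log2 fold change −0.66 ± 0.096 (SE), adjusted p = 5.9e-05) and less from FK to Met+FK (log2 fold change −0.37 ± 0.096 (SE), adjusted p = 0.00632). FANCC of the same complex, FANCD2 and FANCI fell in Met by less than 1.5-fold, with log2 fold changes of −0.55, −0.43 and −0.46 (adjusted p = 2.02e-05, 7.17e-05 and 0.000376). The ubiquitinated pair differed in size from FK to Met+FK, where FANCI fell 1.92-fold (log2 fold change −0.94 ± 0.084 (SE), adjusted p = 6.32e-07) and FANCD2 1.38-fold (log2 fold change −0.47 ± 0.064 (SE), adjusted p = 3.91e-05). This difference between genes was not tested.

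FANCL, the ubiquitin ligase subunit itself, FANCM, the DNA translocase that anchors the complex, and FANCB were not called in Met, with log2 fold changes of −0.29, −0.22 and −0.08 (adjusted p = 0.13, 0.408 and 0.69). From FK to Met+FK all 3 fell, by 1.67-fold, 1.90-fold and 1.47-fold (adjusted p = 0.00133, 0.00315 and 0.0128). The call of FANCB was lost without Met+FK replicate 1 (adjusted p = 0.0535). FANCF, the adaptor subunit, moved against the rest, with 464, 371 and 352 in DMSO, 429, 386 and 420.1 in FK, 526, 513 and 476 in Met and 568, 563 and 528 in Met+FK. It rose in Met (log2 fold change 0.36 ± 0.11 (SE), adjusted p = 0.0112), a call lost without DMSO replicate 3 (adjusted p = 0.0625), and from FK to Met+FK (log2 fold change 0.43 ± 0.11 (SE), adjusted p = 0.00489).

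Of the 4 checkpoint kinases, 1 fell and 1 rose in Met, near the shares of all genes (25.9% and 24.9%), and 3 fell from FK to Met+FK (21.7% of all genes). CHEK2, which ATM activates, had 807, 920.2 and 828 in DMSO, 734, 814 and 799 in FK, 488, 529 and 556 in Met and 554, 576 and 587 in Met+FK. No library with metformin overlapped a library without it. It fell 1.62-fold in Met (log2 fold change −0.70 ± 0.088 (SE), adjusted p = 1.64e-05) and 1.37-fold from FK to Met+FK (log2 fold change −0.45 ± 0.088 (SE), adjusted p = 0.000828). ATM had 1454, 2147 and 1366 in DMSO, 2016, 3441 and 2307 in FK, 2578, 3014 and 2201 in Met and 2377, 2308 and 2229 in Met+FK. All Met libraries exceeded all DMSO libraries by a small margin, and FK replicate 2 was the highest library of all. ATM rose 1.59-fold in Met (log2 fold change 0.67 ± 0.18 (SE), adjusted p = 0.00739), a call that held with each library left out (adjusted p up to 0.041), and its log2 fold change came to 0.29 with the GC trend removed. From FK to Met+FK it was not called (log2 fold change −0.13 ± 0.18 (SE), adjusted p = 0.606).

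ATR, the kinase of stalled forks, had 1849, 2793 and 1885 in DMSO, 2618, 3751 and 2807 in FK, 2427, 3012 and 2268 in Met and 2067, 2256 and 2146 in Met+FK. DMSO replicate 2 lay among the Met libraries, and Met did not differ detectably from DMSO (log2 fold change 0.26 ± 0.16 (SE), adjusted p = 0.189). ATR fell from FK to Met+FK (log2 fold change −0.49 ± 0.16 (SE), adjusted p = 0.0223), a call lost without FK replicate 2 (adjusted p = 0.0790), Met+FK replicate 1 (0.0701) or Met+FK replicate 3 (0.0536). CHEK1, its target, had 1751, 2134 and 1741 in DMSO, 1836, 2474 and 1928 in FK, 1551, 1847 and 1502 in Met and 1393, 1545 and 1426 in Met+FK, where replicate 2 was again highest in each treatment. The value in Met was not called (log2 fold change −0.20 ± 0.12 (SE), adjusted p = 0.176), and CHEK1 fell from FK to Met+FK (log2 fold change −0.50 ± 0.12 (SE), adjusted p = 0.0033), where no libraries overlapped.

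Of the mismatch repair genes, MSH6, a subunit of the complex that recognizes mismatches, had 5994, 7020.0 and 6305 in DMSO, 6738, 7988 and 7068 in FK, 4573, 5124 and 4231 in Met and 3721, 3851 and 3689 in Met+FK. The Met+FK libraries differed little among themselves and lay below all Met libraries. MSH6 fell 1.39-fold in Met (log2 fold change −0.47 ± 0.088 (SE), adjusted p = 0.000442) and 1.93-fold from FK to Met+FK (log2 fold change −0.95 ± 0.088 (SE), adjusted p = 9.32e-07). PMS2, a nuclease that cuts the mismatched strand, was not called in Met (log2 fold change 0.10 ± 0.076 (SE), adjusted p = 0.278) and rose slightly from FK to Met+FK (log2 fold change 0.24 ± 0.076 (SE), adjusted p = 0.0225), a call lost without FK replicate 3 (adjusted p = 0.0743) or any of Met+FK replicates 1, 2 and 3 (0.0505, 0.0645 and 0.0552).

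In base excision repair 2 of 4 members fell and 1 rose in Met (25.9% and 24.9% of all genes). UNG, which begins the removal of uracil, had 6944, 6054 and 6396 in DMSO, 5852, 4814 and 5635 in FK, 3009, 2988 and 3251 in Met and 2727, 2489 and 2806 in Met+FK. The libraries with and without metformin were far apart. UNG fell 2.10-fold in Met (log2 fold change −1.07 ± 0.086 (SE), adjusted p = 2.26e-07) and 2.03-fold from FK to Met+FK (log2 fold change −1.02 ± 0.086 (SE), adjusted p = 3.82e-07). POLB, the polymerase that fills the gap, had 621, 849 and 722 in DMSO, 752, 801 and 785 in FK, 860.2, 959 and 919 in Met and 928, 1023 and 1079 in Met+FK. It rose in Met (log2 fold change 0.33 ± 0.11 (SE), adjusted p = 0.0173), a call lost without DMSO replicate 1 (adjusted p = 0.103) or Met replicate 2 (0.0656), and from FK to Met+FK (log2 fold change 0.37 ± 0.11 (SE), adjusted p = 0.0111).

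XRCC1, the scaffold that holds these enzymes, had 1886, 1821 and 1847 in DMSO, 1749, 1492 and 1632 in FK, 1390.1, 1287 and 1490.4 in Met and 1431, 1475 and 1677 in Met+FK. It fell in Met (log2 fold change −0.42 ± 0.088 (SE), adjusted p = 0.00117), while Met+FK and FK overlapped and were not called apart (log2 fold change −0.09 ± 0.088 (SE), adjusted p = 0.443). LIG3, the ligase bound to XRCC1, was called in neither comparison (−0.16, adjusted p = 0.0626, and 0.02, adjusted p = 0.838). Of the exon bases of LIG3, 30.5% overlap RFFL or CCT6B on the other strand, and of those of XRCC1 20.04% and of MSH6 22.7% are overlapped as well.

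The comparison of Met+FK with FK shares no library with that of Met with DMSO, and it asks what metformin did in cells that had received FK866. Here 26 members fell (66.7%) and 4 rose (10.3%), where 21.7% of all genes fell and 20.5% rose. Without FK replicate 2, 25 fell and 4 rose, and ATR was the call lost. By falling, 17 were DEGs (9.29% of all genes), and none was by rising (9.27%). The 26 falls were those of 12 of 19 genes of homologous recombination, 9 of 10 of the Fanconi anemia pathway, 3 of 4 checkpoint kinases, MSH6 and UNG. The median log2 fold change was −0.49 over the members and −0.011 over all genes, and in 28 members every Met+FK library lay below every FK library and in 4 above (26% and 24.9% of all genes).

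Of the 18 members that fell in Met against DMSO, 17 also fell in Met+FK against FK, the exception being XRCC1. FANCF, POLB and RAD51D rose in both, and no member was called in opposite directions. In all, 32 of 39 members had the same sign in both. The matching shares over all genes are not given here, so this agreement is not read as particular to the members. The 9 members that fell in Met+FK against FK and were not called in Met against DMSO were RAD54B, FANCM, FANCL, BRCA1, MRE11, FANCB, CHEK1, ATR and RAD51C. Being called in 1 comparison and not in the other does not show a difference between them, which is the interaction given below. The same 17 members fell in Met+FK against DMSO as well, where 22 fell and 4 rose (26.1% and 26.1% of all genes), but this comparison shares libraries with both others.

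**Figure D3:**
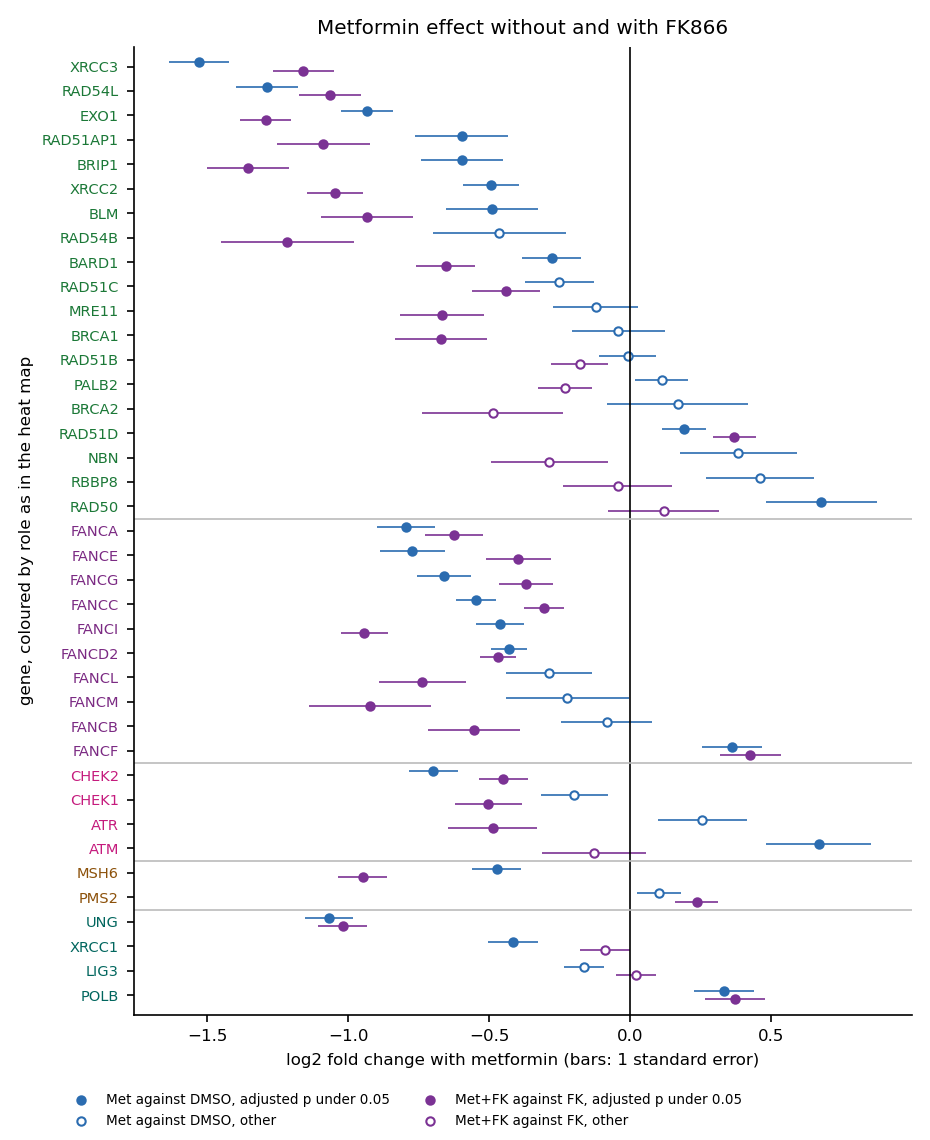
Log2 fold change ± 1 SE (limma-trend, on log2(normalized count + 1)) of each member for Met against DMSO and for Met+FK against FK, with filled symbols for adjusted p under 0.05. Most members lie left of 0 in both, XRCC3, RAD54L, UNG and EXO1 are near or beyond −1 in both, and ATM lies right of 0 in Met against DMSO and near 0 in Met+FK against FK.

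Few members were called with FK866 alone. Against DMSO 5 members rose (12.8%) and 4 fell (10.3%), where 11.3% of all genes rose and 9.84% fell, so the shares were near those of all genes. ATM rose from 1656 ± 428 normalized counts in DMSO to 2588 ± 753 in FK (mean ± SD, n = 3; log2 fold change 0.64 ± 0.18 (SE), adjusted p = 0.0328), and NBN from 1471 ± 467 to 2239 ± 709 (log2 fold change 0.61 ± 0.21 (SE), adjusted p = 0.0499). These 2 were the DEGs by rising, and none was by falling (2.73% and 0.754% of all genes), and in both genes DMSO replicate 2 lay above FK replicate 1, so the groups overlapped. ATR, PALB2 and FANCI rose by less than 1.5-fold, with log2 fold changes of 0.50, 0.32 and 0.27 (adjusted p = 0.0405, 0.0344 and 0.0384). XRCC3 fell (log2 fold change −0.46 ± 0.11 (SE), adjusted p = 0.0201), as did FANCC, UNG and RAD51D with log2 fold changes of −0.25, −0.25 and −0.23 (adjusted p = 0.0308, 0.0489 and 0.0482). RAD54L had −0.31 and was not called (adjusted p = 0.0554), although its FK libraries all lay below its DMSO libraries.

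None of these 9 calls held with every library left out in turn. No member was called without DMSO replicate 1, DMSO replicate 3 or FK replicate 2. Without FK replicate 2 the log2 fold change of ATM was 0.41 (adjusted p = 0.14), that of NBN 0.36 (adjusted p = 0.222) and that of UNG −0.17 (adjusted p = 0.224), and the median over the members moved from 0.17 to 0.10. Of the members, 1 rose and 1 fell without FK replicate 3. Without DMSO replicate 2, 17 rose and 6 fell, and without FK replicate 1, 10 rose and 4 fell. The shares of all genes in these fits are not given here, so the counts describe how unstable the calls were and not a trait of the members. Same-numbered DMSO and FK libraries deviated together (correlations of 0.25, 0.42 and 0.22 across genes), less so with the GC and length trend removed (0.14, 0.17 and 0.13). Once the replicate number entered the fit as a block, 18 members rose and 9 fell (23.3% and 21.3% of all genes). With the GC and length trend removed, 1 rose, ATM (0.23, adjusted p = 0.0467), and 2 fell, FANCC (−0.19, adjusted p = 0.0307) and RAD51D (−0.41, adjusted p = 0.00674), where 5.36% of all genes rose and 4.04% fell. With both, 4 rose and 5 fell (9.83% and 8.51% of all genes).

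The GC content of the members ran from 35.8% (RAD51AP1) to 62.8% (XRCC3), with a median of 42.4%. Across the 39 members the log2 fold change of FK against DMSO fell with GC content (Pearson r = −0.87, Spearman rho = −0.87), and the interaction rose with it (r = 0.86). These correlations are descriptions across genes that share the same 12 libraries, and over 15324 genes r was −0.60 and 0.62. They were −0.46 and 0.51 over the members once the trend was removed from each library. For Met against DMSO r was −0.55 (−0.29 with the trend removed), and for Met+FK against FK it was 0.10 (−0.044). The slope of a library's values on GC was 0.140 ± 0.0842 log2 units per 10 points of GC in DMSO, −0.0891 ± 0.136 in FK, −0.0479 ± 0.114 in Met and −0.00273 ± 0.0583 in Met+FK (mean ± SD, n = 3). FK and DMSO did not overlap (exact two-sided permutation p = 0.1, the smallest that 3 libraries against 3 allow), and Met and DMSO did (exact p = 0.2). Whether the slope belongs to the treatment or to the libraries cannot be told apart here.

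**Figure D4:**
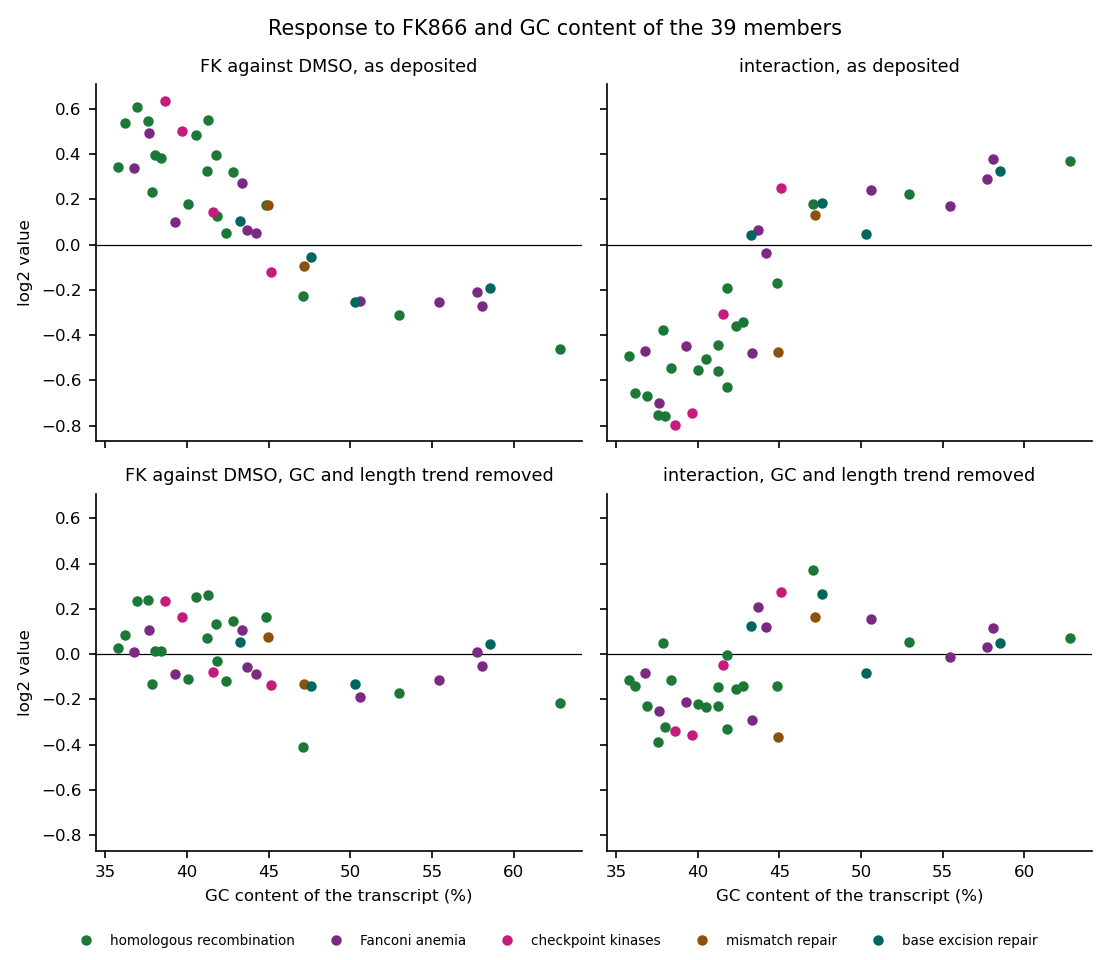
GC content of each member's transcript (horizontal axis, %) against its log2 value (vertical axis) in FK against DMSO and in the interaction, as deposited and with the GC and length trend removed from each library. As deposited, low-GC members are high in FK against DMSO and low in the interaction, and the spread narrows once the trend is removed.

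The falls with metformin remained after this correction. In Met against DMSO 27 members then fell and 4 rose (29.4% and 27.5% of all genes), and in Met+FK against FK 29 fell and 4 rose (28.4% and 25.8%). All 18 members that fell in Met against DMSO as deposited fell with the trend removed, and those added were RAD54B, FANCL, RAD51C, FANCM, CHEK1, LIG3, MRE11, FANCB and BRCA1. In Met+FK against FK the falls added were those of XRCC1 (−0.17, adjusted p = 0.0132), BRCA2 (−0.37, adjusted p = 0.0149) and PALB2 (−0.18, adjusted p = 0.0236). XRCC3 had a log2 fold change of −1.33 in Met, RAD54L −1.16, UNG −0.96 and EXO1 −1.08. The low-GC gene BRIP1 moved from −0.60 to −0.93 and CHEK1 from −0.20 to −0.39, so the size of such values depends on the correction. Falls of other members became smaller. XRCC1 moved from −0.42 to −0.22, FANCE from −0.77 to −0.58 and FANCG from −0.66 to −0.47, so that FANCE and FANCG were no longer DEGs. In turn XRCC2 (−0.73), BLM (−0.71), RAD54B (−0.69) and FANCI (−0.62) became DEGs by falling in Met. ATM (0.29) and RAD50 (0.40) still rose but were no longer DEGs.

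Adding FK866 to metformin, the comparison of Met+FK with Met, gave no call among the members with limma-trend (0 of 39), where 0.0911% of all genes rose and 0.0065% fell. Nor was a member called with edgeR or DESeq2, with the shares of all genes in those fits not given here. At an unadjusted limma-trend p under 0.05 there were 7 members (6.84% of all genes). The median log2 fold change over the members was −0.090, and 29 of 39 were negative. The same values over all genes are not given here, so this is not read as a shift of the members. XRCC2 (log2 fold change −0.38 ± 0.099 (SE), adjusted p = 0.294) and BRIP1 (log2 fold change −0.36 ± 0.15 (SE), adjusted p = 0.657) had the lowest values, and in both the Met+FK libraries lay below the Met libraries. XRCC1 (log2 fold change 0.14 ± 0.088 (SE), adjusted p = 0.821) and POLB (log2 fold change 0.14 ± 0.11 (SE), adjusted p = 0.847) had the highest, and there the libraries overlapped. Same-numbered Met and Met+FK libraries deviated together (correlations of 0.17, 0.20 and 0.23), and in the fit that blocks on the replicate number XRCC2 and MSH6 fell (adjusted p = 0.0223 and 0.0223, where 0.312% of all genes fell). The same 2 genes fell with the GC and length trend removed (adjusted p = 0.019 and 0.0315, 0.476% of all genes). With both, 6 fell (1.49% of all genes), EXO1, UNG, FANCI and BRIP1 in addition.

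The interaction is the effect of metformin in the presence of FK866 minus its effect without it. No member passed in it with limma-trend (0 of 39, where 0.0065% of all genes were higher and 0.052% lower), 19 had an unadjusted p under 0.05 (30.5% of all genes), edgeR called 0 and DESeq2 called 6 as lower (3.37% of all genes). It was negative in 25 of 39 members, with a median of −0.36 against 0.016 over all genes, and the lowest values were those of ATM (−0.80 ± 0.26 (SE), adjusted p = 0.111) and BRIP1 (−0.76 ± 0.21 (SE), adjusted p = 0.11). With the GC and length trend removed the median was −0.12 and 0 members passed. Without FK replicate 2 the median was −0.27, 0 members passed, and ATM had −0.57 (adjusted p = 0.228) and BRIP1 −0.64 (adjusted p = 0.214). Without FK replicate 1, 7 members were lower and 1 higher, with the shares of all genes in that fit not given here. A block on the replicate number ties together all 4 treatments. Of the 5 pairs of groups compared, all 3 correlations of same-numbered libraries passed 0.1 only for DMSO with FK and Met with Met+FK. That cutoff does not show pairing to be absent elsewhere, as DMSO with Met had 0.013, 0.33 and 0.25. The fit with this block gave 21 lower and 4 higher (16.5% and 15.5% of all genes). With block and trend removal 4 were lower (ATM, ATR, FANCI and MSH6) and 2 higher (RAD51D and LIG3), where 2.87% and 2.91% of all genes were.

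Other genes of DNA repair and replication were counted in 6 lists, all of whose members were tested. Of 25 genes of S phase and proliferation, 24 fell and 0 rose in Met against DMSO, with a median log2 fold change of −1.11 (25.9% of all genes fell and 24.9% rose), and 25 fell in Met+FK against FK (21.7%). RRM2, the small subunit of ribonucleotide reductase (−1.71), TYMS, thymidylate synthase (−1.45), and GINS2 of the replicative helicase (−1.45) were lowest. In these comparisons with metformin this list moved with the members, and its part in their fall was not tested. Its median deviation from each gene's mean was 0.61 to 0.68 in the DMSO libraries, 0.38 to 0.57 in FK, −0.50 to −0.43 in Met and −0.74 to −0.58 in Met+FK. That of the 39 members was 0.019 to 0.31 in DMSO, 0.16 to 0.52 in FK, −0.21 to −0.058 in Met and −0.32 to −0.20 in Met+FK, so both separated the libraries with and without metformin. Between DMSO and FK they differed. The list was lower in FK, whereas the members' range reached higher in FK and overlapped that in DMSO.

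Of 19 genes of damage signalling, 12 fell and 1 rose in Met (25.9% and 24.9% of all genes), and 13 fell and 0 rose from FK to Met+FK (21.7% and 20.5%). H2AFX, the histone variant marked at breaks (−1.66), CDC25A, the phosphatase that the checkpoint targets (−1.38), and PKMYT1, a kinase that holds CDK1 (−1.33), were lowest. In end joining and nucleotide excision repair the shares called in Met were near those of all genes (24.9% rose and 25.9% fell). Of 18 genes of end joining 4 rose and 5 fell in Met, with XRCC6 (Ku70) at −0.73 and APLF at 0.93. Of 20 genes of nucleotide excision repair 6 rose and 6 fell, among them DDB2 at −0.59 and ERCC4 at 0.56. Of 12 genes of translesion synthesis 7 rose and 2 fell (24.9% and 25.9% of all genes), with the polymerases POLI at 0.73 and POLH at −0.77. With the GC and length trend removed 3 rose and 2 fell (27.5% and 29.4% of all genes).

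Of 14 p53 targets of the damage response, which share XPC, DDB2 and POLH with the preceding lists, 6 rose and 3 fell in Met (24.9% and 25.9% of all genes) and 4 rose and 4 fell from FK to Met+FK (20.5% and 21.7%). SESN2 (2.24), GADD45A (1.47) and TP53INP1 (1.10), known stress-response genes, rose most in Met, all by the limma-trend test over all genes. DDB2 and POLH of the same list fell. The study reported that p53 protein could not be detected in KP4 cells, and it proposes p53-independent effects of Met+FK on the pathway. The part of p53 in the changes given here was not tested.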

How the data were processed

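Total RNA of 12 KP4 libraries was depleted of ribosomal RNA and sequenced as read pairs. According to the methods of the study, reads were trimmed with cutadapt, aligned to hg38 with STAR, counted per gene with featureCounts and normalized with DESeq2. Which annotation was used and whether counting was stranded are not given in the sources used here. The values the authors deposited are a signal, gene counts divided by a size factor per library (0.867 to 1.21), and the unit is the normalized count. Whole read pairs were recovered from it (100% of values within 0.01 reads), and replicates of a group differed beyond counting noise (chi-square over its degrees of freedom 5.75 to 51.9). No counting intervals are given, because the spread between replicates includes that error. Groups and replicate numbers came from the sample labels. A marker among those counted is not reported by name here.

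Differences were tested with limma-trend (version 3.58.1, R 4.3.3) on log2(normalized count + 1). A single fit held all 12 libraries, with 1 mean per treatment and Benjamini-Hochberg adjustment over 15376 genes whose mean was 10 or more. On this scale the fold changes of genes with low counts are understated. The members, the 6 lists and the rules for named genes were chosen with earlier results of these data known, so no list was tested as a set. Values per library were given for the members with the 4 largest and 4 smallest changes in Met against DMSO, the 2 largest and 2 smallest in FK against DMSO and in Met+FK against Met, the DEGs of these comparisons and the kinases. BRCA1, FANCF, MSH6 and RAD51D were added after their values were seen.

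The alternatives were pseudocounts of 0.1 and 10, a filter of any value above 0, a filter of 10 in each library, equal library totals, TMM scaling, a fit on the compared libraries alone, a block on the replicate number, edgeR (4.0.16, quasi-likelihood) and DESeq2 (1.42.0) on recovered read pairs, a loess trend (span 0.3) on GC content and length removed from each library, that trend with the block, and each library left out. Transcript GC content and length came from GENCODE 44 and were known for 99.7% of tested genes. In simulated counts for Met against DMSO over 15376 genes, with 200 genes changed, the test recovered 1% at 1.25-fold, 65% at 1.5-fold and 89% at 2-fold, with 0, 11 and 10 false calls. Same-numbered libraries were correlated across genes in their deviations from group means to check for pairing. All 3 correlations passed 0.1 for DMSO with FK and for Met with Met+FK, from the values alone. After the trend removal they were 0.136, 0.171 and 0.131 for DMSO with FK and 0.159, 0.0964 and 0.0738 for Met with Met+FK. Promoter windows came from RefSeq (GRCh38.p14).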

Additional observations from a re-analysis of the deposited data

How the results depend on the processing

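With pseudocounts of 0.1 and 10, at least 10 in every library and TMM scaling, every count of members called stayed within 1.5 times its value. Among single members, RAD51D in Met against DMSO went from 0.19 to −0.015 with the GC and length trend removed (with or without the block), and in Met+FK against DMSO ATR went from 0.01 to −0.24 and BRCA2 from 0.05 to −0.29. For FK against DMSO, 5 rose and 4 fell. The counts were 0 and 2 with all genes above 0, 0 and 0 with only the libraries compared, 1 and 2 with the trend removed, 18 and 9 with the replicate block, and 2 fell with libraries scaled to the same total and with edgeR. With each library left out, 0 to 17 rose and 0 to 6 fell. In Met against DMSO 2 to 7 rose and 16 to 19 fell with each library left out, with 3 rising without DMSO replicate 1, 2 without DMSO replicate 3 and 2 without Met replicate 2, and 8 rose with the replicate block. In Met+FK against DMSO 2 to 6 rose and 18 to 22 fell with each library left out (2 without DMSO replicate 3), and 7 rose with libraries scaled to the same total. In Met+FK against FK 3 to 4 rose and 23 to 26 fell. In Met+FK against Met 2 fell with the replicate block, 2 with the trend removed and 6 with both, and 0 with any library left out. For the interaction 4 rose and 21 fell with the replicate block, 2 and 4 with block and trend removal, 6 fell with DESeq2, and 0 to 1 rose and 0 to 7 fell with each library left out (1 and 7 without FK replicate 1). Shares of all genes are not set beside the counts in this section, and the causes of these moves were not tested. DMSO and Met libraries of the same replicate number did not all pass a correlation of 0.1 (0.013, 0.33 and 0.25). Nor did FK and Met+FK (0.046, 0.24 and 0.14) or DMSO and Met+FK (0.051, 0.16 and 0.019), so their numbers were not read as pairs. That cutoff does not show that they were unpaired. The simulated counts changed 200 of 15376 genes, whereas 25.9% of all genes fell and 24.9% rose in Met against DMSO. The adjusted threshold was therefore stricter in the simulation, and its recovery rates do not carry over to the data. In Met against DMSO some members under 1.5-fold were called, such as FANCD2 at 1.35-fold, and others were not, such as RBBP8 at 1.38-fold.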
